A study of Mus musculus with 9 samples.

Results

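The genes described here encode the eukaryotic translation initiation factors (eIFs), the proteins that bring a ribosome to the start codon of an mRNA, together with the proteins that bind and block the cap-binding factor. They were taken by symbol: every gene of the array annotation whose name starts with Eif and a digit, without the eIF2 kinases (Eif2ak genes) and without Eif2s3x and Eif2s3y. Only probe sets that name a single gene were used, and where a gene had several the brightest on average stood for it. This gave 41 of the 18193 genes measured. Eif1, Eif2s1, Eif3g, Eif3j and Eif4g1 were not analysed here.

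In initiation, eIF2 carries the initiator tRNA to the small ribosomal subunit, where eIF1, eIF1A, eIF3 and eIF5 gather, and eIF2B recharges eIF2 with GTP after each round. The cap-binding protein eIF4E, the scaffold eIF4G and the helicase eIF4A, with eIF4B and eIF4H as partners, load that complex onto the capped end of an mRNA. The step is held back by 4E-binding proteins, which mTOR inactivates, and by kinases that phosphorylate eIF2. Myeloblasts are dividing precursors that make the granule proteins of neutrophils, whereas mature neutrophils no longer divide and are known for a low rate of protein synthesis.

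Transcripts were measured on 9 Affymetrix mouse arrays, 3 for each of 3 populations sorted from the marrow of normal C57BL/6 mice of either sex, 4 to 10 weeks old. The mature neutrophils carried the surface antigens Gr1 and Mac1 and lacked c-kit, which binds stem cell factor. MAC1+ myeloblasts carried c-kit, Gr1 and Mac1. MAC1- myeloblasts carried c-kit and Gr1, with Mac1 low or absent. Both myeloblast populations were also gated as negative for B220, TER119, CD3, CD4, CD8 and IL7Rα, and by cytology held undifferentiated cells as well as myeloblasts. The labels do not say that the arrays of a population came from separate animals, so p-values rest on the spread among these arrays alone, and that may be technical. In such bulk samples, fewer cells of a type and less RNA per cell cannot be told apart.

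Levels are given as log2(intensity + 16), called log2 levels, in the order of arrays 1, 2 and 3, and differences are on the same scale with their standard error (SE). For dim genes they understate the change. A gene was called when its limma adjusted p, by Benjamini-Hochberg over all 18193 genes of a comparison, was under 0.05. The mean intensity per array was 654.4, 590.7 and 549.4 on the neutrophil arrays, below that of every myeloblast array. It was 697.8 to 727.4 on the MAC1+ and 678 to 688.6 on the MAC1- arrays. Precision is set by having 3 arrays for each population. The summed intensity of 10 neutrophil marker genes was 104992 to 133777 on the neutrophil arrays, 92528 to 104846 on the MAC1+ arrays and 14138 to 17983 on the MAC1- arrays. Of these 10, Mmp8, Cxcr2, Mmp9 and Itgam were called higher in neutrophils than in MAC1+ myeloblasts (88.5-, 28.8-, 12.0- and 3.64-fold). The other 6 did not pass there, among them the bright Ltf, Camp, Ngp, S100a8 and S100a9. The 6 markers of immature myeloid cells were Kit, Cd34, Mpo, Elane, Prtn3 and Ctsg. Their summed intensity was 1937 to 14330 in neutrophils, 63284 to 75388 in MAC1+ and 66721 to 75982 in MAC1- myeloblasts. For 7 measured monocyte and macrophage markers it was 13678 to 21162 in neutrophils, 4793 to 5866 in MAC1+ and 37159 to 40114 in MAC1- myeloblasts. For 6 B cell markers it was 1033 to 2693 in neutrophils, 2815 to 12515 in MAC1+ and 8428 to 12659 in MAC1- myeloblasts, most of it from Ebf1, while Cd79a, Ms4a1, Pax5 and Vpreb1 each averaged under 100 in both myeloblast populations. Sums for eosinophil, basophil and mast cell markers were 123 to 207 in neutrophils, 1175 to 1535 in MAC1+ and 1379 to 1550 in MAC1- myeloblasts. Those for T and NK cells were 386 to 513 in neutrophils, 80 to 101 in MAC1+ and 60 to 97 in MAC1- myeloblasts, and those for erythroid cells 237 to 655 in neutrophils, 89 to 128 in MAC1+ and 83 to 141 in MAC1- myeloblasts. Megakaryocyte markers summed to 599 to 718 in neutrophils, 334 to 411 in MAC1+ and 289 to 364 in MAC1- myeloblasts. Of the genes behind the sort, Itgam, which encodes the Mac1 alpha chain, had log2 levels of 11.00 to 11.85 in neutrophils, 9.47 to 9.87 in MAC1+ and 6.41 to 6.49 in MAC1- myeloblasts. Kit had 6.79 to 8.44 in neutrophils, 11.64 to 11.77 in MAC1+ and 11.56 to 11.66 in MAC1- myeloblasts, so both followed the labels. The highest neutrophil value for immature myeloid markers belongs to array 1, which stood apart, against 3743 and 1937 on arrays 2 and 3. Correlations between replicate arrays ran from 0.926 to 0.986 in neutrophils, 0.987 to 0.992 in MAC1+ and 0.992 to 0.994 in MAC1- myeloblasts. The part that such marker differences play in the values below was not tested, and counts are also given without neutrophil array 1.

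Most initiation factor transcripts fell in mature neutrophils, and few differed between the myeloblast populations. Set against MAC1+ myeloblasts, 31 of the 41 genes fell in neutrophils, 3 rose and 7 did not pass, where 48.1% of all genes were called (28.4% fell and 19.7% rose). Set against MAC1- myeloblasts, 30 fell, 3 rose and 8 did not pass, where 52.6% of all genes were called (30.0% fell and 22.6% rose). Both comparisons share the neutrophil arrays. The median difference of the 41 genes was -1.37 against MAC1+ and -1.45 against MAC1- myeloblasts, beside medians of 0.05 in both over all genes. Of the 41 genes, 39 lay above the median gene in mean level. Among the 9096 genes above that median, 48.9% fell and 22.7% rose against MAC1+, and 48.8% fell and 27.6% rose against MAC1- myeloblasts, with median differences of -0.59 and -0.55. The neutrophil arrays lay wholly below the MAC1+ arrays for 32 of the 41 genes and wholly above for 3, where 30.9% of all genes lay below and 23.8% above. For MAC1- arrays these were 31 and 5 of the 41, where 32.6% of all genes lay below and 26.5% above. Among the genes above the median, 52.1% and 52.0% lay wholly below. Without neutrophil array 1, 32 of the 41 fell and 4 rose against MAC1+, and 31 fell and 3 rose against MAC1- myeloblasts. Calls over all 18193 genes moved too when single arrays were left out. Against MAC1+ myeloblasts 4640 to 5726 genes then fell and 2786 to 4254 rose. Against MAC1- myeloblasts these were 4977 to 6045 and 3330 to 4601. The deposited arrays differ in their median intensity. It was 61.8, 45.4 and 40.9 on the neutrophil, 39.1 to 42 on the MAC1+ and 41.4 to 42.2 on the MAC1- arrays. With each array centred on its median, which raised the median of all genes to 0.33 and 0.51, 28 fell and 7 rose against MAC1+ and 25 fell and 7 rose against MAC1- myeloblasts. Of all genes 23.5% then fell and 33.7% rose against MAC1+, and 23.3% fell and 44.8% rose against MAC1- myeloblasts. The higher share of the calls then was 20% and 21.9%, beside 8.82% and 9.09% without centring.

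Between the myeloblast populations the differences were small for these genes. In MAC1+ against MAC1- myeloblasts 1 gene rose (Eif4g3), 1 fell (Eif1a) and 39 did not pass, where 11.8% of all genes were called, 6.31% as higher and 5.51% as lower. The median difference was -0.10, beside -0.01 over all genes. The 3 arrays of MAC1+ lay wholly below those of MAC1- myeloblasts for 15 genes and wholly above for 3, where 20.1% of all genes lay wholly below and 19.8% wholly above. Among the genes above the median these shares were 26.9% and 32.2%. Without neutrophil array 1, which adds to the shared estimate of spread, 3 genes fell, the additional ones being Eif2b3 (-0.73, adjusted p = 0.0219) and Eif4b (-0.48, adjusted p = 0.033). Over all genes, leaving out single arrays gave 599 to 1987 that fell and 710 to 2191 that rose. With centred arrays none of the 41 fell and 1 rose, the median of all genes being 0.17 and that of the 41 genes 0.09.

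**Figure D1:**
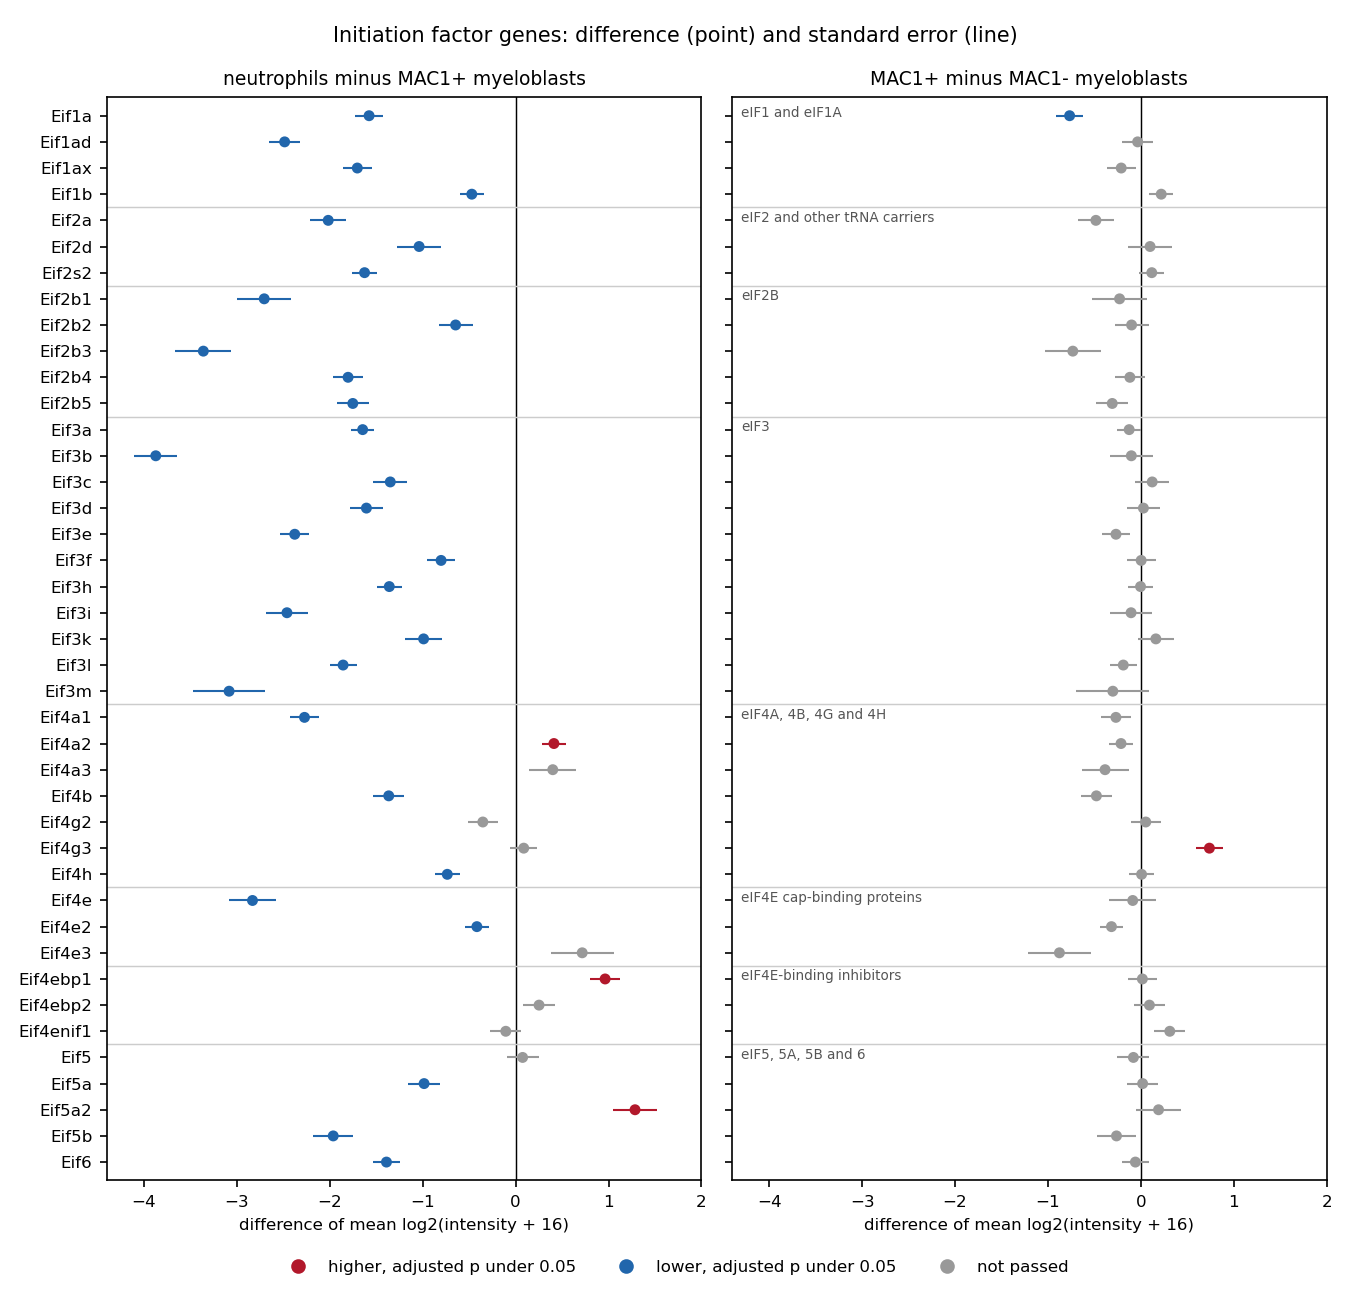
Differences of all 41 initiation factor genes, grouped by role down the page, for neutrophils minus MAC1+ myeloblasts on the left and MAC1+ minus MAC1- myeloblasts on the right. Points are differences of mean log2(intensity + 16), lines the SE, and colours the limma call. On the left 31 points are called lower and reach -3.87, on the right 39 points are grey.

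The 250 bases before a transcript start listed by RefSeq are shown for 5 genes because these genes moved apart: the helicase gene Eif4a1 fell and its paralog Eif4a2 did not, Eif4e and Eif3b fell strongly, and Eif5a2 rose. They come from RefSeq on GRCm38.p6, which held a promoter for 32 of the 41 genes, and Eif1a, Eif2b3, Eif3e, Eif3h, Eif3i, Eif4e3, Eif4ebp1, Eif4g2 and Eif6 had no match. Capitals mark CACGTG, the core letters of the E-box bound by Myc family proteins, which reads the same on both strands. Where a gene had more than 1 start, the window with the most CACGTG matches is shown. That choice applied to Eif4e only. Eif4a1 lies at chr11:69672424-69672673 on the minus strand, Eif4a2 at chr16:23107218-23107467, Eif4e at chr3:138527018-138527267 (one of 2 annotated starts), Eif5a2 at chr3:28781027-28781276 and Eif3b at chr5:140419055-140419304, these on the plus strand. The Eif5a2 and Eif4e windows lie within the span annotated for their genes (28781032 to 28798846 and 138526191 to 138559696, Eif5a2 but for its first bases), and the other windows end where their genes begin.
Eif4a1: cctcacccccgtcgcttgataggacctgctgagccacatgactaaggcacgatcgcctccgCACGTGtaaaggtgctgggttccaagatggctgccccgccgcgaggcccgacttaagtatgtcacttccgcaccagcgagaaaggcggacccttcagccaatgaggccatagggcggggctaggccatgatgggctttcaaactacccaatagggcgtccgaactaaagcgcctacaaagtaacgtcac
Eif4a2: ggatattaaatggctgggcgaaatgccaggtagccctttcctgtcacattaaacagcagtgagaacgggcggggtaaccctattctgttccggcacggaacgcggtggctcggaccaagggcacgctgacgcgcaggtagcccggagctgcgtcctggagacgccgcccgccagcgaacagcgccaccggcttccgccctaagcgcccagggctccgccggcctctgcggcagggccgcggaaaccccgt
Eif4e: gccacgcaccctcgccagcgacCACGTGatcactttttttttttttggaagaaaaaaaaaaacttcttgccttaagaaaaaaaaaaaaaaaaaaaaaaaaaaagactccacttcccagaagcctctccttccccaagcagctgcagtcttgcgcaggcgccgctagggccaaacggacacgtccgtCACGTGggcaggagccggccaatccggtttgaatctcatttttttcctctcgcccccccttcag
Eif5a2: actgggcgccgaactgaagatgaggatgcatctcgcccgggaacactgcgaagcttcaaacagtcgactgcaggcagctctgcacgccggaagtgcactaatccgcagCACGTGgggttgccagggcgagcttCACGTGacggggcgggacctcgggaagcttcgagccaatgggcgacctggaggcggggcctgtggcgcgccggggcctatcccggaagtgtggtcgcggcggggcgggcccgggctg
Eif3b: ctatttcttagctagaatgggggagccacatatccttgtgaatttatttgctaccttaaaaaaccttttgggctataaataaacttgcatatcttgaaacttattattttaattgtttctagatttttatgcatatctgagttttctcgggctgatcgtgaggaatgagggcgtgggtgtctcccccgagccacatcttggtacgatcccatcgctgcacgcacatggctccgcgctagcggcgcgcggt

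Eif4a1 held 1 match, whose first base lies 189 bases before the start. Eif4e held 2 in the window chosen for its matches, at 228 and 64 bases, and Eif5a2 held 2, at 142 and 117 bases. Eif4a2 and Eif3b held 0. Over the 32 genes with a promoter, 8 (25%) held CACGTG in this window (Eif1b, Eif3f, Eif3k, Eif4a1, Eif4e, Eif4h, Eif5a and Eif5a2), against 6.86% of 27025 genes and 6.02% of 32851 promoters. Of those 8, 7 were among the 25 genes that fell in neutrophils against MAC1+ myeloblasts and 1 among the 2 that rose. A second motif, CCGGAAGT or ACTTCCGG on the other strand, the kind bound by ETS factors, was found in 5 of the 32 (15.6%: Eif3d, Eif3l, Eif4e2, Eif5a and Eif5a2), against 3.23% of genes. These letters cannot overlap those of CACGTG. The background shares cover genes of any level, whereas 39 of the 41 members lay above the median gene. No share was computed for genes of like level. A match describes the sequence and shows no binding.

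The factors eIF1 and eIF1A help the small subunit select the start codon. All 4 measured genes grouped with them by name (Eif1a, Eif1ad, Eif1ax and Eif1b) fell in neutrophils against MAC1+ myeloblasts. Eif1 itself was not analysed. Eif1ad, which encodes a protein with an eIF1A-like domain, had log2 levels of 9.0, 9.38 and 9.59 in neutrophils, 11.77, 11.75 and 11.91 in MAC1+ and 11.81, 11.85 and 11.87 in MAC1- myeloblasts. Its neutrophil arrays lay more than 2 log2 units below every myeloblast array, and the myeloblast populations overlapped. It was 5.60-fold lower in neutrophils than in MAC1+ myeloblasts (-2.49, SE 0.17, adjusted p = 2.55e-06).
Eif1a stood at 9.37, 9.76 and 9.59 in neutrophils, 11.06, 11.20 and 11.20 in MAC1+ and 11.96, 11.96 and 11.84 in MAC1- myeloblasts. No group overlapped another. It fell by 0.77 in MAC1+ against MAC1- myeloblasts (SE 0.15, adjusted p = 0.00886), a call lost with centred arrays (-0.58, adjusted p = 0.0791). In neutrophils it was 2.98-fold lower than in MAC1+ myeloblasts (-1.58, SE 0.15, adjusted p = 1.84e-05). Its probe set carries the suffix that marks probes shared by related transcripts, so the signals of Eif1a and near copies may not be separable.
Eif1ax fell by 1.70 and Eif1b by 0.47 in neutrophils against MAC1+ myeloblasts. Against MAC1- myeloblasts Eif1b differed by -0.25 (adjusted p = 0.135), and against MAC1+ its call was lost with centred arrays (-0.19, adjusted p = 0.242).

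Genes for the delivery of the initiator tRNA fell together with those for the exchange factor that recycles it. Eif2s2, the beta subunit of eIF2, fell by 1.63 (SE 0.13) in neutrophils against MAC1+ myeloblasts, and Eif2d, an alternative tRNA carrier also used in recycling, by 1.04 (SE 0.24). With centred arrays the call of Eif2d was lost against MAC1+ (-0.76, adjusted p = 0.0519) and against MAC1- myeloblasts (-0.47, adjusted p = 0.175). Eif2a, which encodes a tRNA-binding protein distinct from eIF2, had log2 levels of 8.31, 8.68 and 8.14 in neutrophils, 10.20, 10.34 and 10.64 in MAC1+ and 11.07, 10.73 and 10.83 in MAC1- myeloblasts. The neutrophil arrays were lowest and the MAC1- arrays highest, with no overlap. It was 4.05-fold lower in neutrophils than in MAC1+ myeloblasts (adjusted p = 2.36e-05), and its difference of -0.48 between MAC1+ and MAC1- myeloblasts did not pass (adjusted p = 0.177).
All 5 subunit genes of eIF2B fell in neutrophils against MAC1+ myeloblasts, with differences from -0.65 to -3.36. Eif2b3, the gamma subunit of its catalytic part, had the largest difference: 6.37, 5.04 and 5.66 in neutrophils, 8.91, 9.25 and 8.99 in MAC1+ and 9.68, 9.96 and 9.71 in MAC1- myeloblasts. Every neutrophil array was below every myeloblast array, at a mean intensity of 39.4. Its transcript was 10.3-fold lower in neutrophils than in MAC1+ myeloblasts (-3.36, SE 0.30, adjusted p = 1.44e-05).
Eif2b1, the alpha subunit, stood at 7.20, 8.39 and 8.31 in neutrophils, 10.53, 10.65 and 10.84 in MAC1+ and 10.99, 10.93 and 10.79 in MAC1- myeloblasts. Neutrophil array 1 was the lowest of all. The difference from MAC1+ myeloblasts was -2.71 (SE 0.29), and -2.33 without that array. Eif2b4 and Eif2b5, the delta subunit and the catalytic epsilon subunit, fell by 1.80 and 1.75. With the mean of its 2 probe sets Eif2b5 was not called (-0.25, adjusted p = 0.409 against MAC1+, and -0.53, adjusted p = 0.0911 against MAC1- myeloblasts). Its other probe set was dim, at mean intensities of 61.1 in neutrophils, 11.3 in MAC1+ and 15.8 in MAC1- myeloblasts.
Eif2b2, the beta subunit, is uncertain. Its brightest probe set fell by 0.65 in neutrophils against MAC1+ myeloblasts (adjusted p = 0.0167), but it is of the kind that can bind several transcripts. Another such probe set differed by -1.93, and the remaining one was higher in neutrophils by 1.17 (adjusted p = 0.000388 in a fit of every probe set). The call was also lost without neutrophil array 2 (adjusted p = 0.0505) or without MAC1+ array 2 (adjusted p = 0.0538).

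All 11 measured subunit genes of eIF3, the scaffold that holds the initiation complex on the small subunit, fell at their brightest probe sets. Their differences in neutrophils against MAC1+ myeloblasts ran from -0.80 (Eif3f) to -3.87 (Eif3b), with a median of -1.65, and against MAC1- myeloblasts from -0.80 to -3.98. None of the 11 passed between MAC1+ and MAC1- myeloblasts, with differences from -0.30 to 0.16. Within the neutrophil comparison, the fall thus differed in size by gene. Eif3f, with the smallest, was also the brightest, at mean intensities of 13076.6 in MAC1+ and 13031 in MAC1- myeloblasts. Compression near the top of the scale was not tested.
Eif3b, which encodes a core subunit with an RNA recognition motif, had log2 levels of 8.09, 9.01 and 8.80 in neutrophils, 12.38, 12.44 and 12.70 in MAC1+ and 12.64, 12.60 and 12.59 in MAC1- myeloblasts. The neutrophil arrays stood far below the myeloblasts, which overlapped. It was 14.7-fold lower in neutrophils than in MAC1+ myeloblasts (SE 0.23, adjusted p = 1.08e-06).
Eif3m, a subunit that shares the PCI domain with several others, stood at 7.21, 8.59 and 9.04 in neutrophils, 11.40, 11.37 and 11.32 in MAC1+ and 11.69, 11.64 and 11.67 in MAC1- myeloblasts. Neutrophil array 1 was the lowest, and the difference from MAC1+ myeloblasts was -3.08 (SE 0.39), or -2.55 without it. The other probe set of Eif3m differed by -1.90, and both are of the kinds that can bind several transcripts.
Eif3i, a WD-repeat subunit, had values of 11.28, 10.52 and 10.40 in neutrophils, 13.12, 13.20 and 13.28 in MAC1+ and 13.41, 13.22 and 13.28 in MAC1- myeloblasts. Here neutrophil array 1 was the highest of its group, and still below every myeloblast array. The gene was 5.51-fold lower in neutrophils than in MAC1+ myeloblasts (-2.46, SE 0.22, adjusted p = 1.66e-05).
Eif3e, known in mice as a site of mammary tumour virus integration, stood at 11.13, 11.17 and 10.73 in neutrophils, 13.34, 13.36 and 13.47 in MAC1+ and 13.65, 13.67 and 13.65 in MAC1- myeloblasts. Its groups did not overlap, and it was 5.20-fold lower in neutrophils than in MAC1+ myeloblasts (-2.38, SE 0.15, adjusted p = 1.82e-06).
The remaining subunits fell by 1.86 (Eif3l), 1.65 (Eif3a, the largest subunit), 1.61 (Eif3d, which can itself bind caps), 1.36 (Eif3h), 1.35 (Eif3c), 0.99 (Eif3k) and 0.80 (Eif3f). For all 7 the neutrophil arrays lay wholly below both myeloblast populations. The call of Eif3l against MAC1+ myeloblasts was lost with the mean of its 3 probe sets (-0.32, adjusted p = 0.29), of which the others averaged under 30 in intensity in every population.

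**Figure D2:**
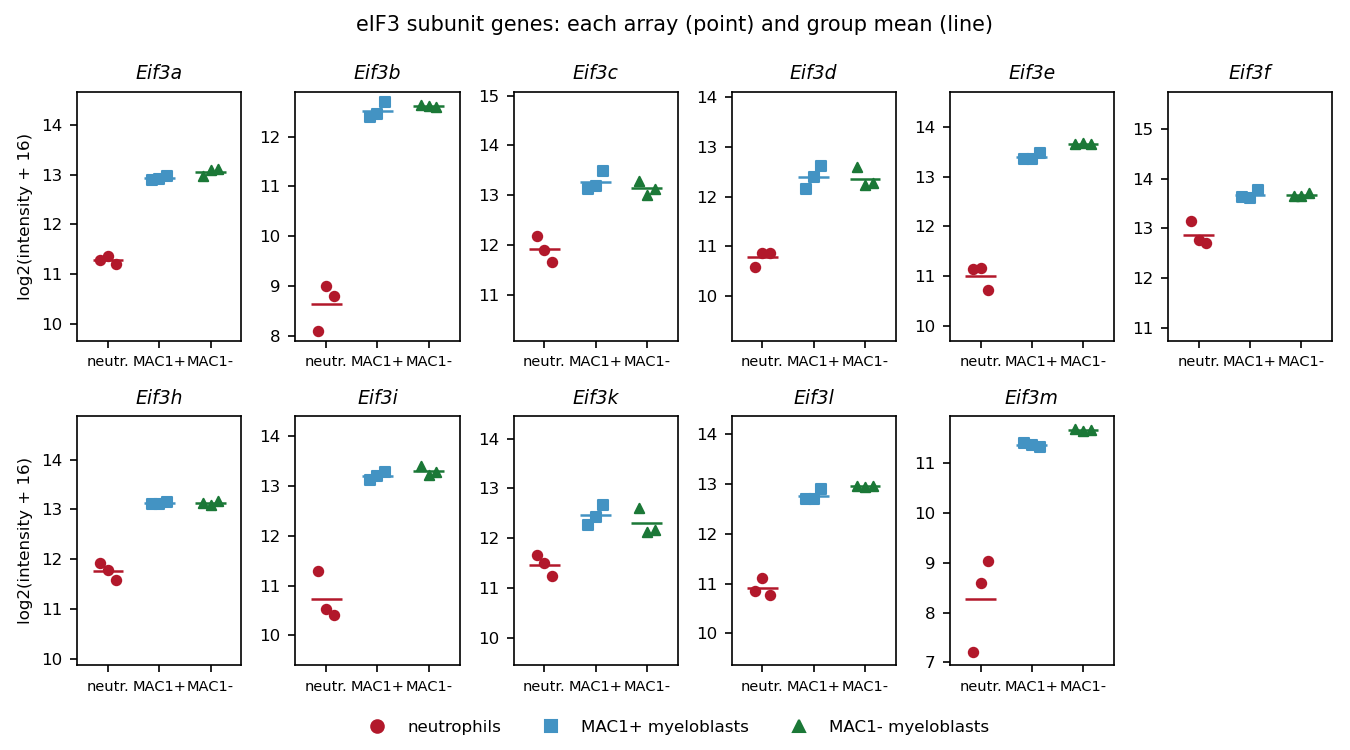
Log2(intensity + 16) of the 11 measured eIF3 subunit genes on each array, with neutrophils (red circles), MAC1+ (blue squares) and MAC1- myeloblasts (green triangles), and lines at group means. Each panel has its own level axis, all of the same span. In every panel the neutrophil points lie below all myeloblast points. By group means they lie farthest below for Eif3b and least far for Eif3f.

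The helicase, its partners and the eIF4G scaffolds did not move as one. Of 7 genes 3 fell, 1 rose and 3 did not pass in neutrophils against MAC1+ myeloblasts. Over all genes 28.4% fell and 19.7% rose there. Among those above the median level 48.9% fell, near the share of this group, and 22.7% rose. Eif4a1, the main eIF4A helicase of dividing cells, had log2 levels of 10.66, 10.21 and 10.24 in neutrophils, 12.60, 12.60 and 12.73 in MAC1+ and 12.91, 13.003 and 12.82 in MAC1- myeloblasts. The neutrophil arrays were lowest, with no overlap between any groups. Eif4a1 was 4.83-fold lower in neutrophils than in MAC1+ myeloblasts (-2.27, SE 0.16, adjusted p = 3.06e-06), and its 2 other probe sets differed by -1.90 and -4.13.
Eif4a2, a close paralog that also serves repression by microRNAs, stood at 12.17, 12.36 and 12.28 in neutrophils, 11.90, 11.82 and 11.85 in MAC1+ and 12.00, 12.07 and 12.14 in MAC1- myeloblasts. Its neutrophil arrays were the highest by a narrow margin. It was 1.33-fold higher in neutrophils than in MAC1+ myeloblasts (0.41, SE 0.13, adjusted p = 0.025), and the difference of 0.20 from MAC1- myeloblasts did not pass (adjusted p = 0.224). The first call was lost without neutrophil array 2 (adjusted p = 0.0665) and without MAC1+ array 1, 2 or 3 (adjusted p = 0.0515, 0.0834 and 0.0637).
Eif4g3, one of the eIF4G scaffolds, was higher in MAC1+ myeloblasts too: 12.04, 11.86 and 11.79 in neutrophils, 11.70, 11.77 and 11.95 in MAC1+ and 11.06, 10.97 and 11.17 in MAC1- myeloblasts. Neutrophils and MAC1+ myeloblasts overlapped, and MAC1- myeloblasts lay below both. It was 1.67-fold higher in MAC1+ than in MAC1- myeloblasts (0.74, SE 0.14, adjusted p = 0.00971) and 1.77-fold higher in neutrophils than in MAC1- myeloblasts (0.83, SE 0.14, adjusted p = 0.000966). The call among the myeloblasts was lost without MAC1- array 2 (adjusted p = 0.0558) and with the mean of its 4 probe sets (0.29, adjusted p = 0.377).
Eif4g2, a scaffold that lacks the eIF4E binding region, did not pass at its brightest probe set (-0.35 in neutrophils against MAC1+ myeloblasts, adjusted p = 0.103). Without neutrophil array 1 it fell by 0.50 (adjusted p = 0.00539). Eif4b and Eif4h, which stimulate the helicase, fell by 1.37 and 0.74. Eif4h was bright, at mean intensities of 14824.8 in MAC1+ and 14738.2 in MAC1- myeloblasts, and compression was not tested. Eif4a3, a helicase of the exon junction complex, was dim, at mean intensities of 16.7 in neutrophils, 8.2 in MAC1+ and 15.3 in MAC1- myeloblasts, and did not pass. Without neutrophil array 1 it was called higher in neutrophils than in MAC1+ myeloblasts (0.62, adjusted p = 0.0414).

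Of the 3 cap-binding proteins, Eif4e and Eif4e2 fell in neutrophils and Eif4e3 did not pass. Eif4e, the cap-binding subunit whose supply can limit initiation, had log2 levels of 8.35, 9.43 and 9.10 in neutrophils, 11.88, 11.81 and 11.70 in MAC1+ and 11.79, 12.02 and 11.84 in MAC1- myeloblasts. All neutrophil arrays were far below the myeloblasts, which overlapped. It was 7.12-fold lower in neutrophils than in MAC1+ myeloblasts (-2.83, SE 0.25, adjusted p = 1.43e-05), and -2.53 without neutrophil array 1. Of its other probe sets, a pair fell by 3.31 and 1.91, and a dim one differed by 1.13.
Eif4e2, a weaker cap binder known for repressing translation, stood at 10.51, 10.54 and 10.44 in neutrophils, 10.78, 10.96 and 11.00 in MAC1+ and 11.21, 11.28 and 11.20 in MAC1- myeloblasts. The groups did not overlap, and neutrophils were lowest. It fell by 0.42 against MAC1+ (SE 0.13, adjusted p = 0.0247) and by 0.73 against MAC1- myeloblasts (adjusted p = 0.00103). The call against MAC1+ myeloblasts was lost without neutrophil array 3 (adjusted p = 0.0502) and without MAC1+ array 2 or 3 (adjusted p = 0.0842 and 0.0805). With centred arrays both were lost (-0.13, adjusted p = 0.431 against MAC1+, and -0.27, adjusted p = 0.122 against MAC1- myeloblasts).
Eif4e3, a cap binder of an unusual kind, had values of 11.06, 11.45 and 11.40 in neutrophils, 11.15, 10.91 and 9.69 in MAC1+ and 11.50, 11.33 and 11.54 in MAC1- myeloblasts. MAC1+ array 3 was the lowest by more than 1 log2 unit, and neutrophils overlapped both other groups. The difference of 0.72 in neutrophils against MAC1+ myeloblasts did not pass (adjusted p = 0.114), and it turned on single MAC1+ arrays, being 0.27 without array 3 (adjusted p = 0.29) and 1.0 without array 1 (adjusted p = 0.0444). Its other probe set was higher in neutrophils by 2.88 against MAC1+ and by 1.65 against MAC1- myeloblasts (adjusted p = 4.85e-05 and 0.00149 in a fit of every probe set).

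The proteins that bind eIF4E and keep it from eIF4G did not fall. Eif4ebp1, the best known target of mTOR among them, had log2 levels of 12.54, 12.20 and 12.13 in neutrophils, 11.29, 11.31 and 11.39 in MAC1+ and 11.49, 11.17 and 11.28 in MAC1- myeloblasts. The neutrophil arrays were the highest without overlap. It was 1.95-fold higher in neutrophils than in MAC1+ myeloblasts (0.96, SE 0.16, adjusted p = 0.000831) and 1.97-fold higher than in MAC1- myeloblasts (0.98, adjusted p = 0.000644). Its other probe sets were higher in neutrophils by 1.05 and 1.87 against MAC1+ myeloblasts.
Eif4ebp2, its paralog, stood at 12.20, 11.72 and 11.69 in neutrophils, 11.52, 11.60 and 11.74 in MAC1+ and 11.48, 11.53 and 11.57 in MAC1- myeloblasts. Neutrophil array 1 was the highest and the other neutrophil arrays lay among the MAC1+ arrays. The difference of 0.25 from MAC1+ myeloblasts did not pass (SE 0.17, adjusted p = 0.252). With quantile normalization or centred arrays Eif4ebp2 was called higher in neutrophils than in either myeloblast population. In a fit of every probe set, its next brightest one was higher in neutrophils by 0.59 against MAC1+ myeloblasts (adjusted p = 0.0418). A dimmer one differed by -0.75 there and did not pass (adjusted p = 0.13).
Eif4enif1, which carries eIF4E into the nucleus and represses mRNAs, had values of 11.83, 11.69 and 11.39 in neutrophils, 11.58, 11.73 and 11.92 in MAC1+ and 11.52, 11.39 and 11.38 in MAC1- myeloblasts. The neutrophil arrays overlapped both other groups, and it passed in no comparison. At their brightest probe sets and without centring or quantile normalization, then, 1 of these 3 inhibitor genes rose in neutrophils and 2 did not pass.

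**Figure D3:**
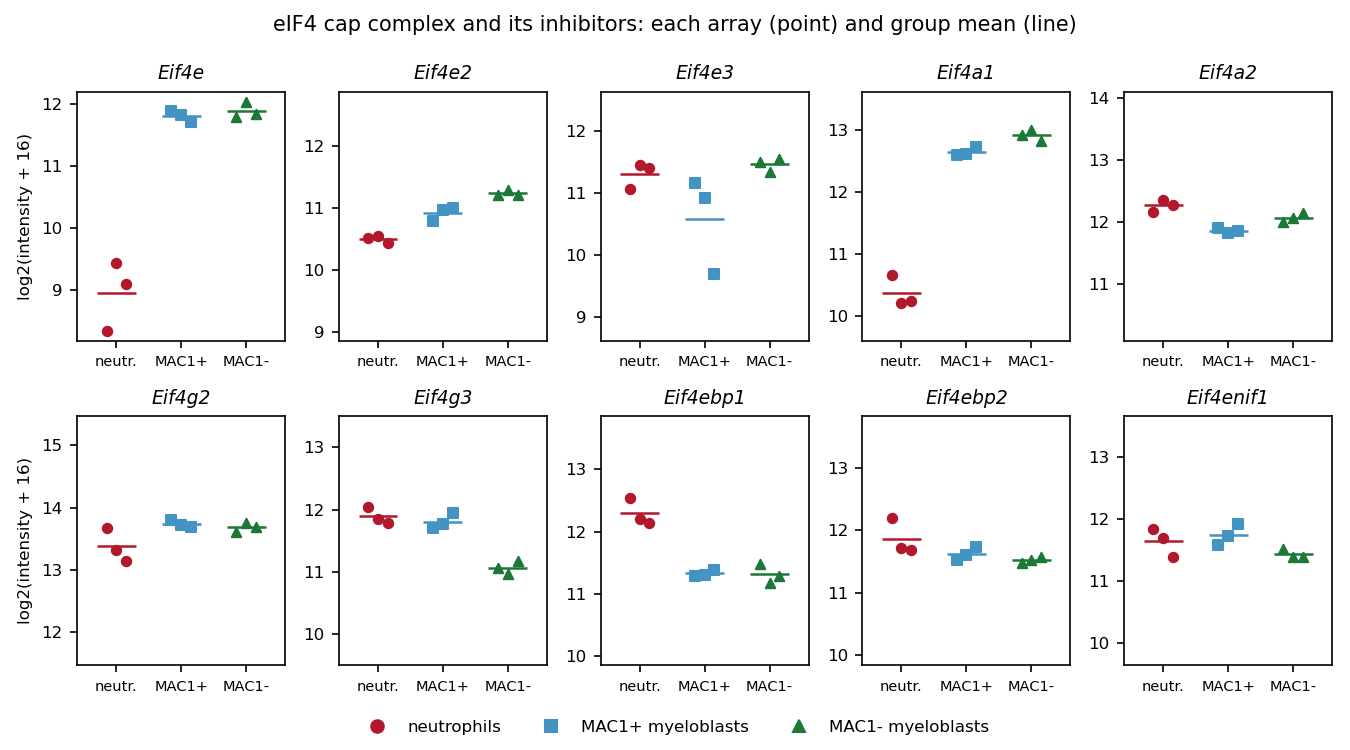
Log2(intensity + 16) of 10 genes of the cap complex and its inhibitors on each array, with neutrophils (red circles), MAC1+ (blue squares) and MAC1- myeloblasts (green triangles), and lines at group means. Neutrophils lie far below the myeloblasts for Eif4e and Eif4a1 and above them for Eif4ebp1, while for Eif4g3 the MAC1- myeloblasts lie below both others.

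The factors for the later steps, at which the subunits join and the first peptide bonds form, were mixed. Eif5, which stimulates GTP hydrolysis by eIF2, had log2 levels of 13.29, 12.93 and 12.66 in neutrophils, 12.86, 12.82 and 12.97 in MAC1+ and 12.97, 13.002 and 12.92 in MAC1- myeloblasts. The neutrophil arrays spanned the range of both others. It differed by 0.08 (SE 0.17, adjusted p = 0.746) from MAC1+ and by -0.01 (adjusted p = 0.984) from MAC1- myeloblasts.
Eif5b, the GTPase of subunit joining, stood at 8.51, 9.37 and 9.05 in neutrophils, 10.84, 10.95 and 11.03 in MAC1+ and 11.09, 11.26 and 11.26 in MAC1- myeloblasts. No group overlapped another, and neutrophils were lowest. It was 3.90-fold lower in neutrophils than in MAC1+ myeloblasts (-1.96, SE 0.21, adjusted p = 5.53e-05).
Eif6, which keeps the large subunit from joining too early, had values of 10.74, 11.10 and 11.10 in neutrophils, 12.27, 12.38 and 12.46 in MAC1+ and 12.47, 12.43 and 12.39 in MAC1- myeloblasts. The myeloblasts overlapped and the neutrophils lay below them. It was 2.62-fold lower in neutrophils than in MAC1+ myeloblasts (-1.39, SE 0.15, adjusted p = 4.77e-05).
Eif5a encodes the hypusine-bearing factor that helps ribosomes through difficult peptide bonds. It stood at 13.31, 12.86 and 12.78 in neutrophils, 13.96, 13.86 and 14.09 in MAC1+ and 13.98, 13.95 and 13.92 in MAC1- myeloblasts. Neutrophils lay below the overlapping myeloblasts, and the gene was 1.98-fold lower than in MAC1+ myeloblasts (-0.99, SE 0.17, adjusted p = 0.00105). These levels are near the top of the scale, where the brightest probe set of every array had an intensity of at least 18326, and compression was not tested.
Eif5a2, a paralog of narrow tissue expression, had values of 7.74, 6.84 and 7.14 in neutrophils, 6.15, 5.90 and 5.82 in MAC1+ and 5.57, 5.73 and 5.99 in MAC1- myeloblasts. The neutrophil arrays were the highest, at a mean intensity of 140.5, beside 46.3 in MAC1+ and 38.8 in MAC1- myeloblasts. It was 2.44-fold higher in neutrophils than in MAC1+ myeloblasts (1.29, SE 0.24, adjusted p = 0.00171). Its other, dimmer probe set differed by 0.43 in that comparison and was lower in neutrophils than in MAC1- myeloblasts by 0.92 (adjusted p = 0.00486 in a fit of every probe set).

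Ratios of related genes within an array showed where paralogs moved apart, and a scaling of a whole array largely cancels in them. A ratio shows unequal change of a pair, not which transcript was more abundant, since probe sets differ in brightness. Of 8 pairs considered, 5 had both genes measured. The log2 ratio of Eif4a1 to Eif4a2 was -2.15, -2.04 and -1.51 on the neutrophil arrays in ascending order, 0.70, 0.79 and 0.88 on the MAC1+ arrays and 0.68, 0.91 and 0.93 on the MAC1- arrays. It was thus negative on each neutrophil array and positive on each myeloblast array, and 6.43-fold lower in neutrophils than in MAC1+ myeloblasts (difference -2.68). The ratio of Eif4e to Eif4e2 was -2.16, -1.34 and -1.11 in neutrophils, 0.71, 0.85 and 1.09 in MAC1+ and 0.58, 0.64 and 0.74 in MAC1- myeloblasts, 5.33-fold lower in neutrophils than in MAC1+ myeloblasts. The ratio of Eif4e to Eif4e3 differed by -3.55 in neutrophils against MAC1+ and by -2.76 against MAC1- myeloblasts.
The ratio of Eif4ebp1 to Eif4ebp2 went the other way, with 0.34, 0.44 and 0.48 in neutrophils, -0.35, -0.29 and -0.23 in MAC1+ and -0.36, -0.29 and 0.01 in MAC1- myeloblasts (difference 0.71 from MAC1+ myeloblasts). The ratio of Eif5a to Eif5a2 was 5.57, 5.64 and 6.02 in neutrophils, 7.81, 7.96 and 8.27 in MAC1+ and 7.93, 8.22 and 8.41 in MAC1- myeloblasts, a difference of -2.27 in neutrophils against MAC1+ myeloblasts. In all 5 pairs the neutrophil arrays were apart from either myeloblast population. Each of these 10 exact permutation tests gave p = 0.1, two-sided, the smallest that 3 against 3 arrays allow, so none can pass 0.05. Between MAC1+ and MAC1- myeloblasts the ratio of Eif4e to Eif4e3 did not overlap (difference 0.79, exact p = 0.1, and 0.39 without MAC1+ array 3). For the other 4 pairs the groups overlapped there (exact p from 0.2 to 0.8).

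**Figure D4:**
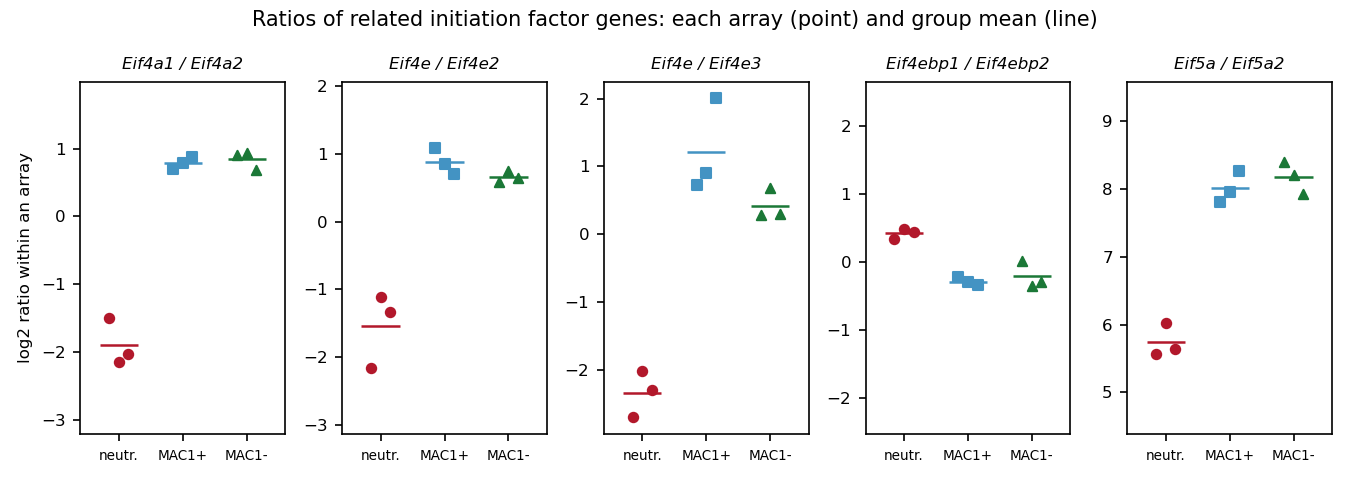
Within-array log2 ratios of 5 pairs of related initiation factor genes, with neutrophils on the left (red circles), then MAC1+ (blue squares) and MAC1- myeloblasts (green triangles), and lines at group means. The neutrophil points lie below all myeloblast points for 4 pairs and above them for Eif4ebp1 over Eif4ebp2.

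Regulators of eIF2 and eIF4E were taken from lists chosen with results of these data known. Of 15 measured other proteins of initiation, 10 fell, 2 rose and 3 did not pass in neutrophils against MAC1+ myeloblasts. Over all genes 28.4% fell and 19.7% rose there, and among those above the median level 48.9% and 22.7%. Pabpc4, a poly(A)-binding protein, differed by -3.77 (SE 0.65, adjusted p = 0.00109) but ranged from 5.89 to 9.06 among the neutrophil arrays. Abce1, which splits ribosomes for recycling, was 12.4-fold lower in neutrophils than in MAC1+ myeloblasts (8.72, 8.57 and 8.26 in neutrophils, against 12.09, 12.19 and 12.18). Larp1, which binds mRNAs of the translation machinery, fell by 2.41 (SE 0.16). Mknk1, a kinase that phosphorylates eIF4E, was 2.95-fold higher in neutrophils (12.57, 12.36 and 12.07) than in MAC1+ myeloblasts (10.84, 10.59 and 10.90), adjusted p = 4.73e-05. Paip2, an inhibitor of poly(A)-binding protein, rose by 0.63 (adjusted p = 0.0138, and 0.05 and 0.0517 without MAC1+ array 1 or 2). Pdcd4, which blocks eIF4A, fell by 0.70 in MAC1+ against MAC1- myeloblasts (adjusted p = 0.0138), the only call of the 15 in that comparison, and by 1.54 in neutrophils against MAC1+ myeloblasts. The first of these calls was lost without MAC1+ array 2 (adjusted p = 0.071) and without MAC1- array 2 or 3 (adjusted p = 0.0716 and 0.0659). Denr, a reinitiation factor, and Pabpc4 also fell there without neutrophil array 1 (-0.42 and -0.82, adjusted p = 0.0336 and 0.0347).

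The eIF2 kinases moved in opposite directions. Eif2ak4, the kinase that senses uncharged tRNA, had log2 levels of 4.84, 5.33 and 5.39 in neutrophils, against 8.86, 9.22 and 9.38 in MAC1+ and 9.17, 8.86 and 9.02 in MAC1- myeloblasts. Neutrophils lay at the dim end of the scale and far below both others (15.6-fold lower than MAC1+, adjusted p = 4.87e-07). Eif2ak3, the kinase of the endoplasmic reticulum, rose by 1.52 (SE 0.12) and Eif2ak2, the kinase activated by double-stranded RNA, by 1.69 (SE 0.26) in neutrophils against MAC1+ myeloblasts. Eif2ak1, the kinase that senses haem, did not pass (-0.09, adjusted p = 0.773).
Of the 13 measured genes of this integrated stress response, 6 rose, 2 fell and 5 did not pass in that comparison. Over all genes 19.7% rose and 28.4% fell there, and among those above the median level 22.7% and 48.9%. The largest rise was that of Ddit3, a transcription factor induced by the response, with 11.69, 11.16 and 10.78 in neutrophils, against 8.36, 8.64 and 8.69 in MAC1+ and 8.33, 7.89 and 8.17 in MAC1- myeloblasts. Neutrophil array 1 was the highest, and no neutrophil array came near the myeloblasts (6.27-fold higher than MAC1+, adjusted p = 1.56e-05). Trib3, a pseudokinase induced with it, rose by 2.22 (SE 0.27), and Ppp1r15a, the inducible phosphatase subunit, by 1.06 (SE 0.36, adjusted p = 0.0388). Ppp1r15a differed by 0.59 without neutrophil array 1 (adjusted p = 0.0259), and leaving out any single myeloblast array lost its call (adjusted p from 0.057 to 0.118). Atf4, whose mRNA is under translational control in this response, did not pass in any comparison, but without neutrophil array 1 it was lower in neutrophils than in MAC1+ myeloblasts (-0.47, adjusted p = 0.00466) and in MAC1- myeloblasts (-0.31, adjusted p = 0.0294). Atf5 fell by 1.91 in neutrophils against MAC1+ myeloblasts.
Chac1, an enzyme that degrades glutathione and a target of the response, rose in all 3 comparisons. It had 11.48, 10.68 and 10.80 in neutrophils, 9.65, 9.67 and 9.72 in MAC1+ and 7.34, 7.47 and 7.35 in MAC1- myeloblasts. It was 4.91-fold higher in MAC1+ than in MAC1- myeloblasts (adjusted p = 0.000124) and 2.48-fold higher in neutrophils than in MAC1+ myeloblasts (adjusted p = 0.000654). In MAC1+ against MAC1- myeloblasts 3 of the 13 rose and 0 fell, the others being Asns, asparagine synthetase (1.46, adjusted p = 0.000327), and Ppp1r15b, the constitutive phosphatase subunit (0.56, adjusted p = 0.0204, and 0.0534 to 0.0873 without any single myeloblast array). Over all genes 6.31% rose and 5.51% fell there, and among those above the median level 11.5% and 7.22%. The count of 3 stress response genes that rose ran from 2 to 8 over the alternative settings, and was 5 without neutrophil array 1. Over all genes, leaving out single arrays gave 710 to 2191 that rose there.

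**Figure D5:**
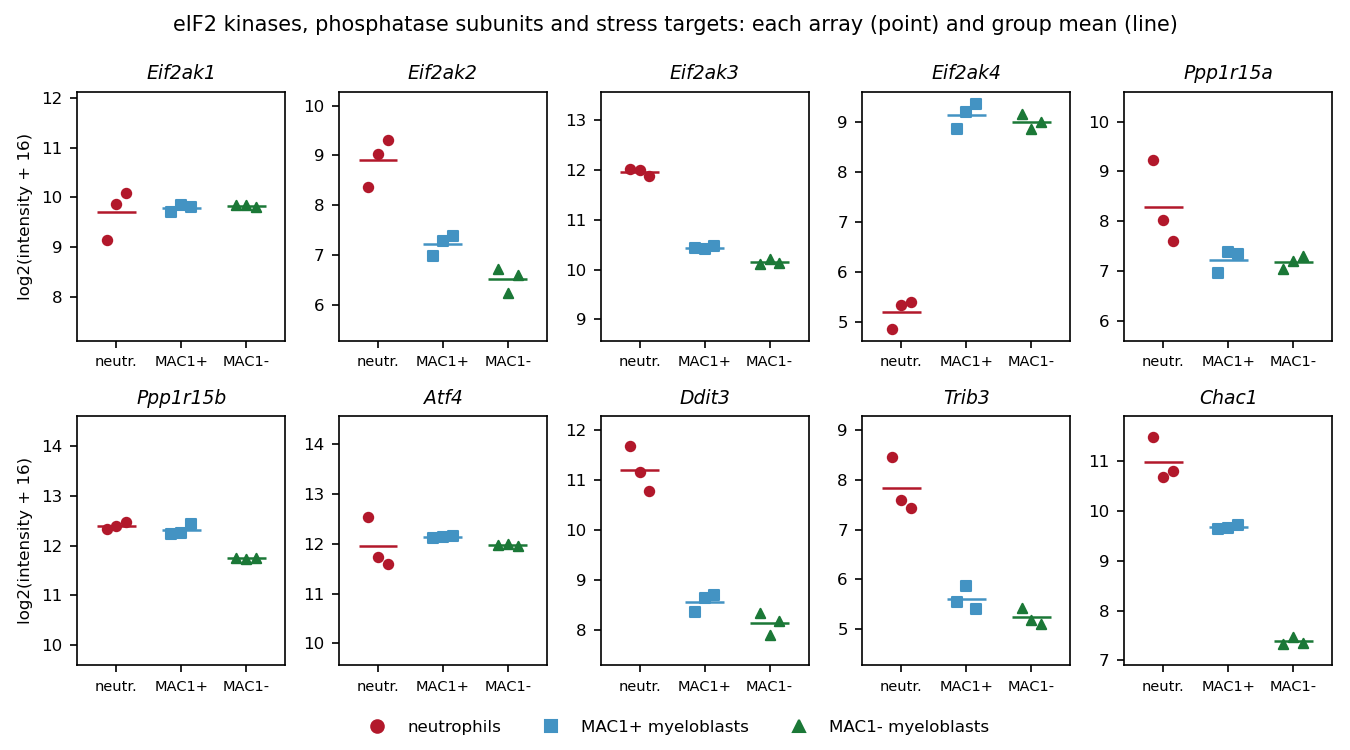
Log2(intensity + 16) of the 4 eIF2 kinase genes, both phosphatase subunit genes and 4 genes of the stress response on each array, with neutrophils (red circles), MAC1+ (blue squares) and MAC1- myeloblasts (green triangles), and lines at group means. Neutrophils lie far below the myeloblasts for Eif2ak4 and above them for Eif2ak2, Eif2ak3, Ddit3, Trib3 and Chac1.

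The mTOR pathway releases eIF4E from the 4E-binding proteins. Of 11 measured genes of that pathway, 6 fell, 1 rose and 4 did not pass in neutrophils against MAC1+ myeloblasts. Over all genes 28.4% fell and 19.7% rose there. Among those above the median level 48.9% fell, near the share of this list, and 22.7% rose. Rps6, the ribosomal protein phosphorylated by S6 kinases, was 7.35-fold lower, and Akt1s1, an inhibitory mTOR partner, fell by 1.25. Ddit4, an inhibitor of the pathway, rose by 1.94 (SE 0.33, adjusted p = 0.000972). Mlst8, a subunit of both mTOR complexes, was the only call in MAC1+ against MAC1- myeloblasts, with 10.31, 10.26 and 10.28 in MAC1+ and 8.93, 8.76 and 8.80 in MAC1- myeloblasts (1.46, adjusted p = 0.000938). Over all genes 6.31% rose and 5.51% fell there. Without neutrophil array 1, 3 of the 11 rose and 2 fell there. Over all genes, leaving out single arrays gave 710 to 2191 that rose and 599 to 1987 that fell. The number that fell in neutrophils ran from 2 to 8 over the alternative settings.

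Of 9 measured genes listed for elongation and release, 8 fell and 1 did not pass in neutrophils against MAC1+ myeloblasts. Over all genes 28.4% fell and 19.7% rose there, and among those above the median level 48.9% and 22.7%. The 8 include Eef2k (-1.61), which encodes a kinase that inhibits elongation factor eEF2, and Eef1e1, whose product is not an elongation factor. Eef1e1, a scaffold of the tRNA synthetase complex, was 29.5-fold lower, Gspt1, the release factor eRF3a, differed by -3.29 (7.13, 8.90 and 8.99 in neutrophils), and Eef1d, a subunit of the elongation factor exchange complex, fell by 3.03. Gspt2, a retrogene paralog of Gspt1, fell in MAC1+ against MAC1- myeloblasts, with 5.46, 5.98 and 6.07 in MAC1+ and 9.51, 9.65 and 9.79 in MAC1- myeloblasts (14.1-fold lower in MAC1+, adjusted p = 0.000116). Both enzymes that make hypusine on eIF5A fell in neutrophils against MAC1+ myeloblasts, Dohh by 3.26 (SE 0.17) and Dhps by 0.81 (SE 0.22, adjusted p = 0.0134, and 0.0501 without MAC1+ array 2). Of 7 measured mitochondrial translation factors 5 fell, 1 rose and 1 did not pass. Gfm1, an elongation factor, fell by 2.43, and Mtrf1l, a release factor, fell by 2.19. Mtif2, the mitochondrial initiation factor, fell by 2.01. Tsfm, the exchange factor of Tufm, rose by 0.88 (adjusted p = 0.0219). Tsfm differed by 0.55 without neutrophil array 1 (adjusted p = 0.00824), and without MAC1+ array 1, 2 or 3 it was not called (adjusted p = 0.0546, 0.0653 and 0.0537).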

How the data were processed

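Per the labels' protocols, column-purified RNA of sorted marrow cells went through a two-cycle amplification, which favours 3' ends, and was biotinylated. The authors deposited linear intensity values for 45101 probe sets on 9 arrays; the method of summarising and scaling is not given in sources used here. The authors' deposited intensities were used as they stand, and log2(intensity + 16) was taken from them. Gene names come from the platform's annotation, in which 34945 probe sets name 1 gene, 932 several and 9160 none, besides 64 controls. All 41 members matched a gene table of GRCm38.p6 by ID.

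Samples were grouped by their titles. Differences were tested with limma 3.58.1 (R 4.3.3) in a single model of the 3 populations over 18193 genes, with Benjamini-Hochberg adjustment. Ratios of paralogs were tested with exact permutation tests, also in R. Promoter windows, gene matches and figures were made with Python 3.11.15. The fit was tested on simulated data. Of 115 probe sets for the members, 31 members had several. Values by array are given for the members with the 10 largest called differences in either direction, the eIF4E, 4E-binding and eIF5 groups and the paralog pairs, and in each list for up to 3 called genes of largest difference, with further genes named after their values were seen. Members and lists were chosen with earlier results of these data known. Other settings tried were quantile normalization, a replicate block, median centring, an offset of 1 or 64, a filter at the 40th percentile of gene level, the mean of probe sets, leaving out x and s probe sets, another variance prior, only the populations compared, array weights, every probe set (chosen after seeing the data) and leaving out each array.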

Additional observations from a re-analysis of the deposited data

How the results depend on the processing

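Over 2451 recomputed differences of the 41 genes, 2309 kept their direction and their side of the threshold, 51 passed only under the alternative and 32 were lost. A further 54 turned direction without passing in either setting, all from differences of 0.3 or less in size, 38 of them between the myeloblast populations. The 5 that turned and passed in at least one of the settings, all in neutrophils, were Eif5 against MAC1- myeloblasts with centred arrays (0.46) and with the mean of probe sets (0.48), Eif4e3 against MAC1- myeloblasts with that mean (0.74), and Eif2b2 without x and s probe sets (1.17 against MAC1+ and 1.16 against MAC1- myeloblasts). The cause was not tested, beyond the choice of probe sets itself. Besides those given above, calls in neutrophils against MAC1- myeloblasts were lost with centring for Eif2b2 (-0.28), Eif3k (-0.36) and Eif4h (-0.26), and with the mean of probe sets for Eif5a2 (0.28). Against MAC1+ myeloblasts those of Eif2b2, Eif4a2, Eif4e2 and Eif1b were lost with only the populations compared, and those of Eif2b2 and Eif4e2 with quantile normalization.

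In MAC1+ against MAC1- myeloblasts, the count of factors that fell (1) was 3 with quantile normalization, 0 with centring, 4 with an offset of 64, 3 with the mean of probe sets, 4 with only the populations compared and 8 with array weights; the count that rose (1) was 0 with the mean of probe sets and 2 with array weights. In neutrophils, the count that rose (3) was 5 with quantile normalization, 7 with centring, 6 with the mean of probe sets and 5 with array weights against MAC1+, and 7 with centring and 6 with array weights against MAC1- myeloblasts. Leaving out each array gave 0 to 1 that rose and 1 to 3 that fell in MAC1+ against MAC1- myeloblasts, 2 to 4 and 29 to 32 in neutrophils against MAC1+, and 3 and 30 to 31 against MAC1- myeloblasts. Deviations of same-numbered arrays correlated at -0.307 to 0.132, so the numbers were not taken to pair samples. With the replicate block, 2 rose and 30 fell in neutrophils against MAC1+ myeloblasts (Eif4a2 and Eif4e2 were lost, at adjusted p = 0.0606 and 0.0579 with limma), 3 and 30 against MAC1- myeloblasts, and 1 and 1 between the myeloblasts.

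Over all genes, the count higher in MAC1+ than in MAC1- myeloblasts (1148) was 1724 with centring, 2274 with only those populations and 2904 with array weights, and the count lower (1003) was 2235 with only those populations and 2856 with array weights; leaving out an array gave 710 to 2191 and 599 to 1987. In neutrophils, the count higher was 6131 with centring and 5831 with array weights against MAC1+, and 8147 and 6202 against MAC1- myeloblasts.

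The log2 ratio of Eif5a to Eif5a2 differed in neutrophils by -2.52 with an offset of 1, -1.84 with 64 and -2.02 with the mean of probe sets against MAC1+, and by -2.76, -1.93 and -1.44 against MAC1- myeloblasts, and by 0.58 with that mean between the myeloblasts. With the mean of probe sets, Eif4a1 to Eif4a2 gave -3.18, -3.39 and -0.21 in neutrophils against MAC1+, neutrophils against MAC1- and MAC1+ against MAC1-; Eif4ebp1 to Eif4ebp2 gave 1.02, 1.16 and 0.14; and Eif4e to Eif4e2 gave -1.09 and -0.88 in the neutrophil comparisons. Dim members (Eif4a3, Eif5a2 and, in neutrophils, Eif2b3) are limited by background.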

Other observations

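The spread among the neutrophil arrays did not follow a single order over the initiation factors. Neutrophil array 1 was the highest of its group for 20 of the 41 genes and the lowest for 15. Array 2 was the highest for 16 and the lowest for 4, and array 3 the highest for 5 and the lowest for 22. The median log2 level of the 41 genes was 11.06, 10.90 and 10.73 on the neutrophil arrays, against 11.88, 11.81 and 11.92 on the MAC1+ and 11.95, 12.02 and 11.87 on the MAC1- arrays. Every neutrophil array lay below every myeloblast array in that median.

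Probe sets of 1 gene did not always move together. In neutrophils against MAC1+ myeloblasts Eif2b2 had probe sets called in both directions, and against MAC1- myeloblasts Eif2b2, Eif4e and Eif5a2 did. For Eif5 the probe set described did not pass, while another was higher in neutrophils by 1.37 against MAC1+ and by 1.13 against MAC1- myeloblasts. For Eif4g2 the 2 next brightest probe sets were lower in neutrophils by 0.84 and 0.85 than in MAC1+ myeloblasts. For Eif4g3 a dim probe set was higher in neutrophils by 1.37 than in MAC1+ myeloblasts, where the brightest differed by 0.09. Besides Eif1a and Eif2b2, probe sets that can bind several transcripts stood for Eif3c, Eif3e, Eif3m, Eif4g2, Eif4h and Eif5a. Without such probe sets, 29 genes fell and 4 rose in neutrophils against MAC1+, and 28 and 4 against MAC1- myeloblasts. Eif3m and Eif5a then had no probe set left.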
